A study of Mus musculus with 170 samples.

Results

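The G1 cell cycle genes described here are the D-type cyclins Ccnd1, Ccnd2 and Ccnd3, the E-type cyclins Ccne1 and Ccne2, the cyclin-dependent kinases (CDKs) Cdk4 and Cdk6, and the Cip/Kip CDK inhibitors Cdkn1a, Cdkn1b and Cdkn1c. They are 10 of the 40549 genes in the expression table and were chosen by name, around a difference in Ccnd2 between genotypes that was known beforehand in these same cells, so the values below describe that difference and do not test it. Transcripts were measured in hand-picked single cells from the ventricles of C57BL/6 mouse hearts at embryonic day 9.5 by Smart-seq2, a full-length cDNA method. Control hearts, labelled wild type, were Dgcr8 loxP/loxP with 1 copy of the ROSA26 mT/mG reporter and no Cre. Conditional knockout (cKO) hearts carried the same Dgcr8 loxP/loxP and ROSA26 mT/mG/+ alleles and in addition Mesp1 Cre/+, which recombines in the early mesoderm that forms most of the heart. Dgcr8 encodes the RNA-binding subunit of the microprocessor, which cuts microRNA (miRNA) hairpins out of primary transcripts. The study removed cKO cells that showed the reporter as not recombined, and likewise control cells that showed it as recombined.

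The table covered 74 control cells (35 in batch 1, 39 in batch 2) and 69 cKO cells (35 and 34), and batch means the batch named in the sample titles. The labels name no embryo or litter, so each genotype is 1 sample. No test between genotypes was made, an SD describes the scatter across cells, and the differences are also given within each batch. Cells were grouped by cell type markers into a cardiomyocyte-like (CM-like) cluster of 93 cells with all 15 cardiomyocyte markers raised, an endothelial-like cluster of 22 cells, an epicardial-like cluster of 13 cells that also had 7 of 14 mesenchymal markers raised, an erythroid-like cluster of 5 cells, and an unnamed cluster of 10 cells led by mitochondrial transcripts. The CM-like cluster held 27 control cells (19 in batch 1, 8 in batch 2) and 66 cKO cells (33 in each batch). The unit was TPM, a transcript abundance that is scaled per length and per cell and keeps no sequencing depth. The median number of genes with TPM above 0 was 9302 in control and 8686 in cKO CM-like cells, and its order turned between batches, with 8458 against 9845 in batch 1 and 9704 against 7786 in batch 2. Dgcr8 reached a TPM of at least 1 in 14 of 27 control and 21 of 66 cKO CM-like cells, and gene-level values cannot show a deleted exon. The X-inactivation transcript Xist reached that level in 0 of 27 control and 63 of 66 cKO CM-like cells, and the Y-linked gene Ddx3y in 18 of 27 and 0 of 66. By counting error, a count of 0 leaves room for up to 11.1% of 27 cells and 4.55% of 66 cells. Genotype and sex-linked transcripts therefore cannot be told apart in these cells.

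In G1, growth signals raise the D-type cyclins, which bind CDK4 and CDK6 and begin to phosphorylate the retinoblastoma protein Rb. E-type cyclins with CDK2 complete that step, E2F factors are set free, and the genes for DNA replication are transcribed. The Cip/Kip proteins p21, p27 and p57, encoded by Cdkn1a, Cdkn1b and Cdkn1c, bind cyclin-CDK complexes and restrain CDK2. Cardiomyocytes of the embryonic heart divide while they contract, and cyclin D2 is among the cyclins known to support their division.

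Several of these genes are textbook targets of miRNAs, the class of small RNA that depends on Dgcr8. The mature sequences of 7 miRNAs, each standing for a family with the same seed, are shown because their seeds were searched in the 3′ UTRs of the 10 genes. The seed, bases 2 to 8, is in capitals, and the sequences are those of RefSeq on GRCm38.p6.
mmu-let-7a-5p: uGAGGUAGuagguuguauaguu
mmu-miR-16-5p: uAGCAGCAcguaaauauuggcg
mmu-miR-17-5p: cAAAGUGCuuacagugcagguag
mmu-miR-26a-5p: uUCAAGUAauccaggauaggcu
mmu-miR-34a-5p: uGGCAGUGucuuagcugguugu
mmu-miR-221-3p: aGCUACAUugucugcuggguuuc
mmu-miR-541-5p: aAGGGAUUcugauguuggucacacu

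Letters complementary to a whole seed were counted on the transcript strand of the longest annotated 3′ UTR of each gene (GENCODE M21, GRCm38). Over 21661 genes with such a UTR, the match to let-7 (CTACCTC) was present in 8.67%, that to miR-16 (TGCTGCT) in 19.5%, that to miR-17 (GCACTTT) in 11.4%, that to miR-26 (TACTTGA) in 9.36%, that to miR-34 (CACTGCC) in 13.8%, that to miR-221 (ATGTAGC) in 9.13% and that to miR-541 (AATCCCT) in 7.77%. Ccnd2, on chromosome 6 at positions 127125162 to 127152193, has a 3′ UTR of 5173 bases against a median of 909 over all genes. It held 5 matches to 4 of the 7 seeds. Cdk6 had 9 matches to 3 seeds in 10217 bases, and each of the other 8 genes had 1 or 2 matches. The 5 stretches of Ccnd2, all on the minus strand, are shown with the seed match in capitals.
Ccnd2 miR-17 match, chr6:127129339-127129360: attccattagaaaaGCACTTTg
Ccnd2 miR-26 match, chr6:127128925-127128946: agttgtattcattgTACTTGAa
Ccnd2 miR-16 match, chr6:127128541-127128562: aatgtttcacggtgTGCTGCTa
Ccnd2 miR-221 match 1, chr6:127126546-127126567: caggctgggggtacATGTAGCa
Ccnd2 miR-221 match 2, chr6:127125327-127125348: acaatgctgatgtgATGTAGCc
Cdkn1a, on chromosome 17 at positions 29090976 to 29100727, shares the miR-17 and miR-16 seed matches with Ccnd2 and Ccnd1, and its stretches on the plus strand are shown for comparison.
Cdkn1a miR-17 match, chr17:29099815-29099836: ctcagacctgaataGCACTTTg
Cdkn1a miR-16 match, chr17:29100075-29100096: ttaatctggtgatcTGCTGCTc
These are letter matches and not measured binding sites. Mature miRNAs were not measured in these cells, and nothing about the levels below is drawn from the matches.

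Ccnd2 was the D cyclin whose transcript was lower in cKO than in control CM-like cells in both batches. In the 27 control cells its level ran from 5.95 TPM at the lowest through a median of 289 to 1134 at the highest. In the 66 cKO cells it ran from 0 through 68.1 to 978.5 TPM. The ranges overlapped over most of their length, while 43 of 66 cKO cells lay below the lower quartile of the control cells and 10 lay below their lowest cell. On the log2(TPM + 1) scale the mean was 7.91 ± 1.84 (SD, 27 cells) in control and 5.75 ± 2.65 (SD, 66 cells) in cKO, a difference of −2.16. It was −1.54 in batch 1 (7.92 against 6.38) and −2.77 in batch 2 (7.90 against 5.13). The control means of the batches differed by 0.02, whereas the cKO mean was 1.25 lower in batch 2, where cKO cells also had fewer detected genes. Between the quartiles of detected genes there were 17 control and 30 cKO cells, with at most 8 control cells in batch 2. In these cells the difference was −2.14 (−1.50 in batch 1 and −2.12 in batch 2).

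Ccnd2 was lower but still detected in most cKO cells. A TPM of at least 1 was found in 27 of 27 control cells, 100% (exact Clopper-Pearson 95% interval 87.2 to 100). The cKO share was 61 of 66 cells, 92.4% (interval 83.2 to 97.5). These intervals cover counting error only. At 100 TPM or more there were 23 of 27 control and 28 of 66 cKO cells, 85.2% and 42.4%. Of the cKO cells, 1 was listed at 0, and 10, that cell among them, lay below the lowest control cell of 5.95 TPM. The lower mean thus came both from cells near the floor and from cells spread over the range below 100 TPM. The part carried by each was not computed. The ratio of mean TPM, which weights the highest cells, gave a smaller log2 difference of −1.28 (−0.93 in batch 1 and −1.67 in batch 2), and with it Ccnd2 no longer passed 1 log2 unit in both batches.

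**Figure D1:**
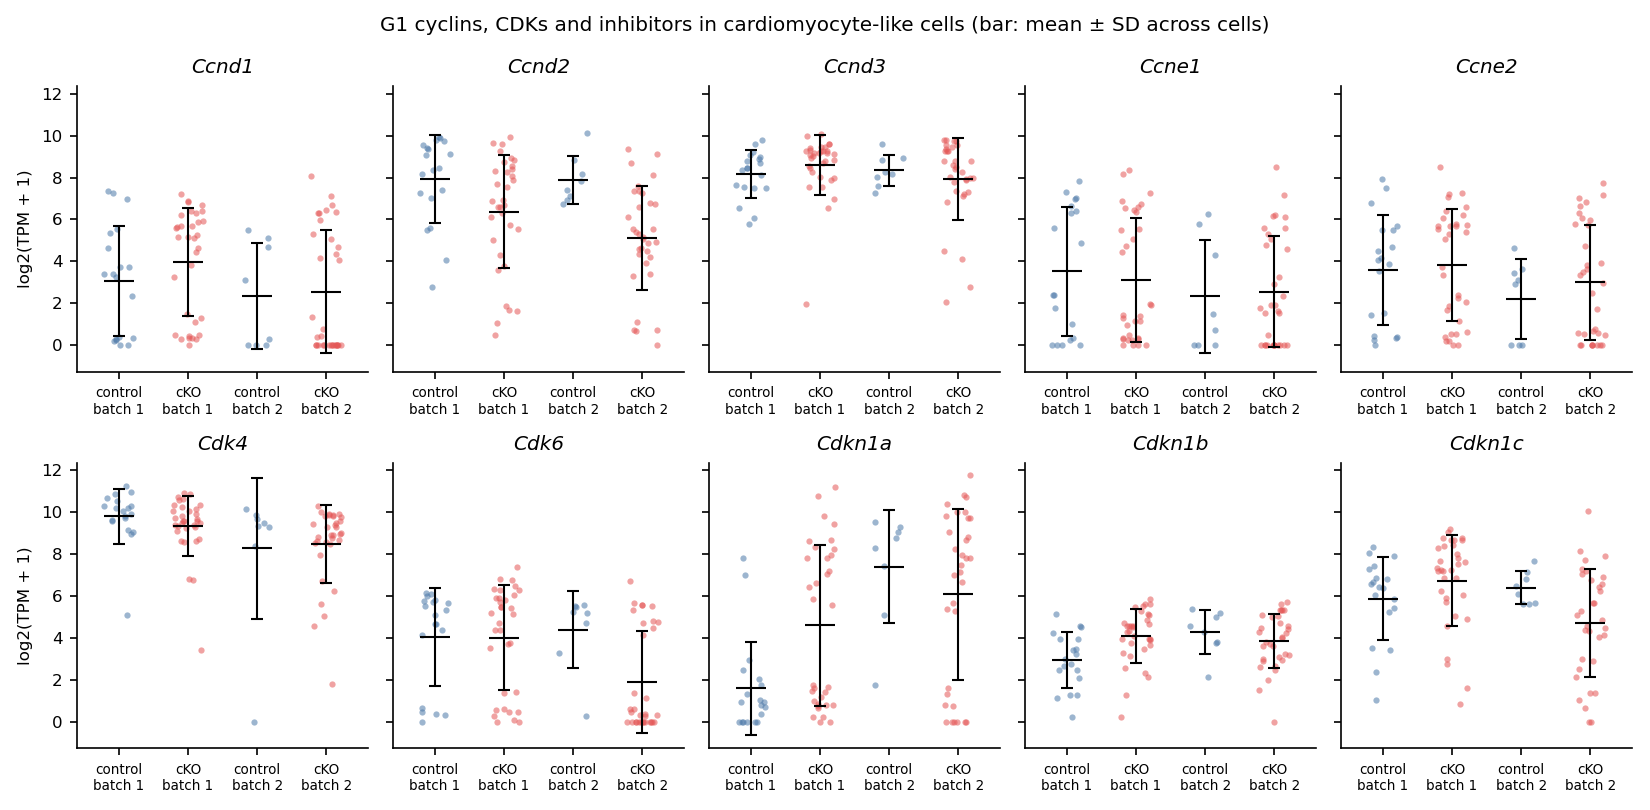
Level of each of the 10 genes, in log2(TPM + 1), in every CM-like cell (1 point per cell), split by genotype and batch, with bars for the mean and SD across cells. Ccnd2 sits at means of 7.92 and 7.90 in the control batches and of 6.38 and 5.13 in the cKO batches, while Cdkn1a differs more between the control batches than between genotypes in batch 2.

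The other D cyclins did not follow Ccnd2. Ccnd3, the D cyclin found in every CM-like cell, ran from 54.9 through a median of 331 to 873 TPM in control cells and from 2.94 through 442 to 1067 TPM in cKO cells. Its mean log2 level was 8.22 ± 1.02 (SD) in control and 8.27 ± 1.74 in cKO, with a difference of 0.05 that was 0.43 in batch 1 and −0.40 in batch 2. Most cells of both genotypes thus lay within a common range, and 5 cKO cells lay below the lowest control cell and 4 above the highest. Ccnd1, which encodes cyclin D1, was low and patchy. It ran from 0 through 8.68 to 165 TPM in control and from 0 through 16.2 to 266 TPM in cKO cells, and reached 1 TPM in 16 of 27 (59.3%) and 40 of 66 cells (60.6%). The Ccnd1 difference of 0.39 (0.88 and 0.20 in batches 1 and 2) was well inside the SD across cells of 2.57 and 2.83. Between the quartiles of detected genes (17 control and 30 cKO cells) Ccnd1 was higher by at least 1 log2 unit in both batches. It differed by 1.18 and 1.82 there, and did not pass 1 log2 unit in all CM-like cells.

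Because TPM is scaled per length, the D cyclins can be compared within a cell, where the total of the cell drops out. Ccnd2 made up a median of 47.1% of the summed D cyclin TPM in control cells (quartiles 29.4 and 60.9) and 16.2% in cKO cells (quartiles 3.81 and 38.1). The medians were 47.1% and 27.2% in batch 1, and 44.1% and 6.61% in batch 2. Control cells were split almost evenly by which cyclin led. Ccnd2 was the most abundant D cyclin in 48.1% of control cells (13 of 27, interval 28.7 to 68.1). In cKO cells that share was 16.7% (11 of 66, interval 8.62 to 27.9). Ccnd3 led in the other 14 control and 55 cKO cells, and Ccnd1 led in 0 of the 93 cells. The summed D cyclin level had a median of 824 TPM in control (lowest 80.2, highest 1633) and of 583 TPM in cKO cells (lowest 15.3, highest 1888). In batch 1 its mean log2 was 9.32 and 9.30, nearly the same in both genotypes, and in batch 2 it was 9.31 and 8.63. Its medians in control and cKO were 915 and 659 TPM in batch 1, and 679 and 390 TPM in batch 2. The D cyclin sum was therefore lower in cKO in both batches by the median, while by the log2 mean it was similar in batch 1 and lower in batch 2.

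**Figure D2:**
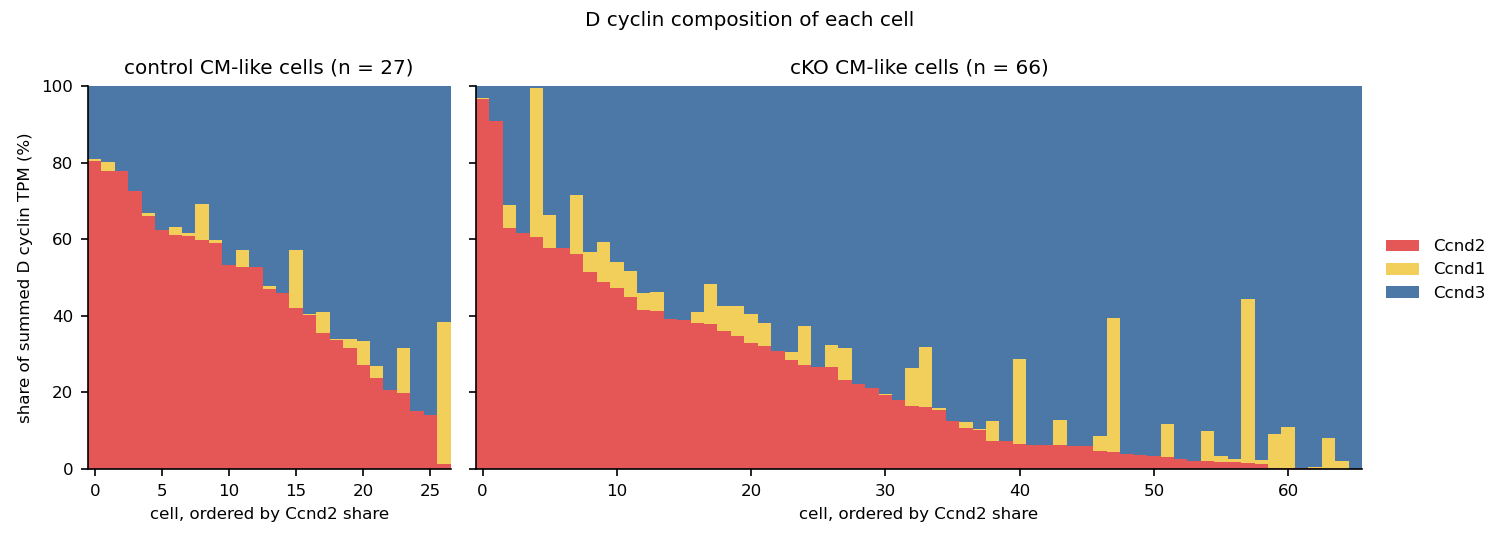
Share of the summed D cyclin TPM (percent, vertical axis) taken by Ccnd2, Ccnd1 and Ccnd3 in each CM-like cell, 1 column per cell ordered by the Ccnd2 share, for 27 control and 66 cKO cells. The Ccnd2 share has a median of 47.1% in control and 16.2% in cKO cells, and Ccnd3 fills most of the rest.

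The E cyclins, partners of CDK2 at the end of G1, were scattered in both genotypes. Ccne1 ran from 0 through a median of 4.28 to 227 TPM in control and from 0 through 2.29 to 363 TPM in cKO cells. Ccne2 ran from 0 through 10.6 to 243 TPM in control and from 0 through 9.83 to 363 TPM in cKO cells. Both genes had cells at 0 and cells above 200 TPM in each genotype, and the groups overlapped nearly completely. The difference of Ccne1 was −0.35 (−0.44 in batch 1, 0.24 in batch 2) and that of Ccne2 was 0.23 (0.24 and 0.78), against SDs across cells between 2.47 and 2.98. At least 1 TPM of both E cyclins was found in 12 of 27 control and 27 of 66 cKO cells, of only 1 of them in 11 and 31 cells, and of neither in 4 and 8 cells. Cells with both genes thus made up 44.4% of control and 40.9% of cKO cells.

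Cdk4, which encodes a kinase activated by D cyclins, was the most abundant of the 10 genes. It ran from 0 through a median of 894 to 2398 TPM in control and from 2.50 through 669 to 1901 TPM in cKO cells. The difference was −0.43, with −0.44 in batch 1 and 0.21 in batch 2, so its sign turned between batches. In control batch 2, 1 of 8 cells listed Cdk4 at 0. Cdk6, its close relative, was far lower. It ran from 0 through 34.99 to 68.5 TPM in control and from 0 through 11.3 to 167 TPM in cKO cells. Its pooled difference of −1.19 rested on batch 2, where the means were 4.40 and 1.90 (−2.50), while in batch 1 they were 4.04 and 4.00 (−0.03). Cdk6 reached 1 TPM in 25 of 33 cKO cells in batch 1 and in 13 of 33 in batch 2. Median detected genes of the cKO cells were 9845 and 7786 in those batches. Between the quartiles of detected genes there were 17 control and 30 cKO cells. Their Cdk6 difference was −0.76, with 0.60 in batch 1 and −2.33 in batch 2. Cdk4 exceeded Cdk6 in 26 of 27 control and 65 of 66 cKO cells.

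Among the inhibitors, none kept 1 direction in both batches. Cdkn1a encodes p21, which p53 induces under stress. It ran from 0 through a median of 2.35 to 732 TPM in control and from 0 through 98.9 to 3442 TPM in cKO cells, and 12 of 66 cKO cells exceeded the highest control cell. The mean log2 levels were 3.31 ± 3.57 (SD) and 5.34 ± 3.99, a pooled difference of 2.03. In batch 1 it was 3.01 (1.58 in control, 4.598 in cKO), and in batch 2 it was −1.33 (7.40 and 6.07). The control cells themselves differed by 5.81 between batches, with 8 of 19 cells at 1 TPM or more in batch 1 and 8 of 8 in batch 2. The pooled difference thus mixed unlike control cells, and its sign depended on the batch.

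The batch gap of Cdkn1a was seen in endothelial-like and epicardial-like control cells too. In endothelial-like cells its mean was 3.08 in batch 1 (7 cells) and 7.87 in batch 2 (15 cells), and in epicardial-like cells it was 0.70 (4 cells) and 6.71 (9 cells). In the cKO CM-like cells the gap was smaller, 1.47. In the control cells of the unnamed cluster the order was the other way, at 1.98 in batch 1 (5 cells) and 0.22 in batch 2 (2 cells). The mean of control cells of batch 2 was therefore high in Cdkn1a in the CM-like, endothelial-like and epicardial-like classes.

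Cdkn1b encodes p27, whose amount is known to be set largely by protein turnover. Its transcript ran from 0.17 through a median of 10.2 to 40.6 TPM in control and from 0 through 17.1 to 55.9 TPM in cKO cells, the narrowest spread of the 3 inhibitors in cKO (SD 1.29). The difference was 0.64, with 1.15 in batch 1 and −0.42 in batch 2. Cdkn1c, the imprinted gene for p57, ran from 1.02 through 84.9 to 325 TPM in control and from 0 through 79.6 to 1057 TPM in cKO cells. Its cKO cells reached both lower and higher than the control cells, with 4 below their lowest and 10 above their highest. The difference was −0.30, with 0.86 in batch 1 and −1.67 in batch 2. All 3 inhibitors were thus higher in cKO in batch 1 and lower in batch 2. Every CM-like cell of either genotype had at least 1 of them at 1 TPM or more, and all 3 were present in 16 of 27 control and 43 of 66 cKO cells.

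Across the 10 genes, 1 (Ccnd2) was lower by at least 1 log2 unit in both batches and 0 were higher. Of the 15061 genes that passed the filter on low values (TPM above 0 in more than 10 CM-like cells), 2.65% were lower and 2.89% were higher by that rule. Since the genes were chosen around this contrast, nothing is read from these shares. All 10 passed the filter, and 6 of them had opposite signs in the batches, against 44.01% of all genes. Cdk4 was among these 6, and with the ratio of mean TPM it was lower in both batches. The median difference of all genes was 0.06 pooled, 0.17 in batch 1 and −0.17 in batch 2. Ccnd2 ranked 87 from the lowest among the 15061 pooled differences, and Cdk6, the next lowest of the 10, ranked 629.

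**Figure D3:**
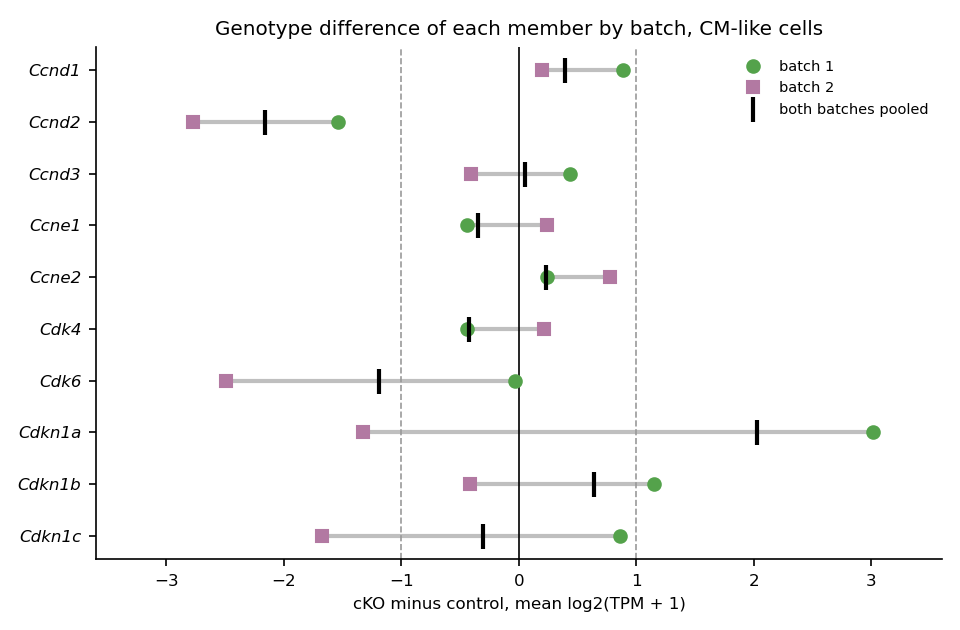
Difference in mean log2(TPM + 1), cKO minus control, for each of the 10 genes in CM-like cells in batch 1 (circles), batch 2 (squares) and both batches pooled (vertical ticks), with dashed lines at 1 log2 unit either way. Ccnd2, at −1.54 and −2.77, is the 1 gene beyond a dashed line on the same side in both batches, and Cdkn1a spans from −1.33 to 3.01.

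The balance of Ccnd2 with the inhibitors was taken within each cell. Ccnd2 exceeded Cdkn1b in 27 of 27 control cells and in 72.7% of cKO cells (48 of 66, interval 60.4 to 82.97). It exceeded Cdkn1c in 85.2% of control cells (23 of 27, interval 66.3 to 95.8) and in 53.03% of cKO cells (35 of 66, interval 40.3 to 65.4). In each batch the share of cells with Ccnd2 above Cdkn1b was lower in cKO, at 81.8% and 63.6% against 100% in both control batches. For Cdkn1c it was 42.4% against 89.5% in batch 1 and 21 of 33 against 6 of 8 cells in batch 2. Against Cdkn1a the order depended on the batch, since Ccnd2 was the higher in 19 of 19 control and 20 of 33 cKO cells of batch 1, and in 3 of 8 and 14 of 33 cells of batch 2. Cells with at least 100 TPM of Cdkn1a and less than that of Ccnd2 numbered 0 of 27 in control and 22 of 66 in cKO, 8 in batch 1 and 14 in batch 2.

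Outside the CM-like cluster the named classes came from control hearts alone, so class and sample cannot be told apart for cKO. Ccnd3 was nearly level over the control classes, from 8.13 in epicardial-like to 8.62 in erythroid-like cells on the log2(TPM + 1) scale. Ccnd2 was highest in CM-like (7.91 ± 1.84, SD) and epicardial-like cells (7.68 ± 0.78), followed by erythroid-like (6.53 ± 2.74) and endothelial-like cells (6.46 ± 1.92). The cKO CM-like mean of 5.75 lay below all of these. Ccnd1 had another order, with 6.93 ± 1.61 in epicardial-like, 4.96 ± 2.20 in endothelial-like, 2.86 ± 2.57 in CM-like and 2.46 ± 3.12 in erythroid-like cells. The epicardial-like cells thus held high transcript levels of all 3 D cyclins.

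The inhibitors and kinases also ranked by class. Cdkn1c was highest in endothelial-like cells at 8.36 ± 1.41 (median 446 TPM), then 7.41 ± 0.94 in epicardial-like, 6.03 ± 1.72 in CM-like and 5.38 ± 2.75 in erythroid-like cells. Cdk4 ran from 10.43 ± 0.59 in endothelial-like to 9.08 ± 1.02 in erythroid-like cells, and Cdk6 from 5.15 ± 1.48 in epicardial-like to 2.71 ± 2.59 in erythroid-like cells. Cdkn1b stayed between 2.67 and 3.97, Ccne1 between 2.99 and 4.74, and Ccne2 between 2.29 and 4.18 in control cells. The class means here and above pool the control batches in unequal shares. Epicardial-like Ccne2, for example, was 5.05 in batch 1 (4 cells) and 1.07 in batch 2 (9 cells). In batch 2 Cdk4 was 8.27 ± 3.38 in CM-like cells (8 cells, 1 of them at 0), below the 9.08 of erythroid-like cells. The medians of these cells were closer, at 677 and 704 TPM. The pooled class means of Cdkn1a, from 3.31 to 6.35, mix the unlike control batches in the same way. Within batches endothelial-like cells were followed by CM-like and then epicardial-like cells, at 3.08, 1.58 and 0.70 in batch 1 and 7.87, 7.40 and 6.71 in batch 2, and erythroid-like cells were found in batch 2 alone (4.79). Between neighbours in these orders, 0 of 30 gaps exceeded the larger SD across cells of the pair, so no neighbouring classes stood apart beyond their spread.

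**Figure D4:**
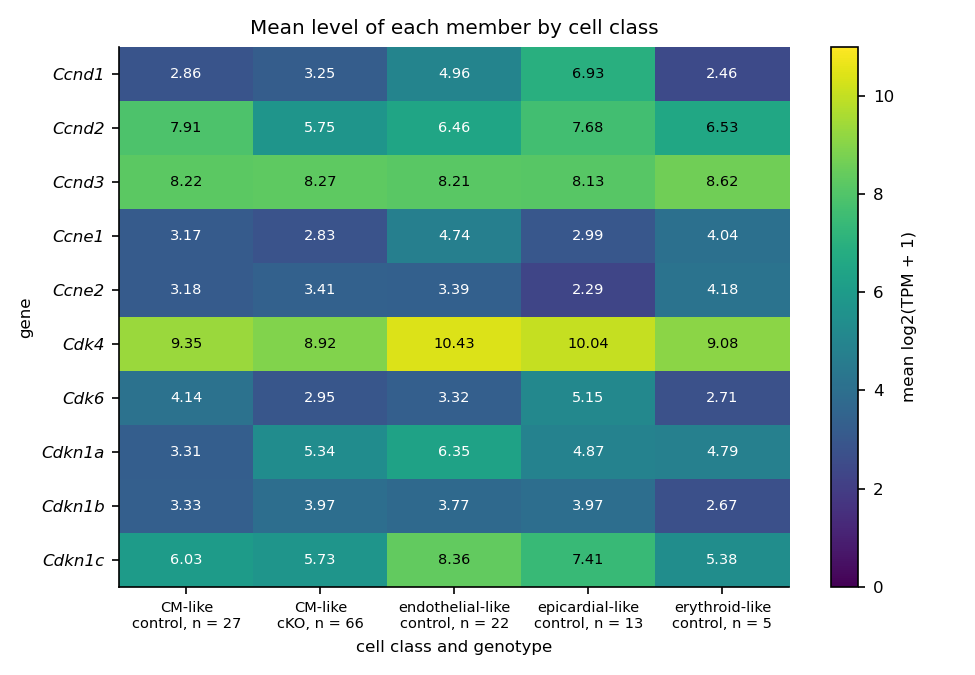
Mean log2(TPM + 1) of each of the 10 genes (rows) in CM-like cells of both genotypes and in the control endothelial-like, epicardial-like and erythroid-like cells (columns, with the number of cells). Ccnd3 stays between 8.13 and 8.62 in the control classes, while Ccnd1 peaks at 6.93 in epicardial-like and Cdkn1c at 8.36 in endothelial-like cells.

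Other genes of the pathway were taken from lists of 84 genes, of which 79 passed the filter in CM-like cells. By the same rule 5 of the 79 were lower and 2 higher in cKO, beside 2.65% and 2.89% of all 15061 genes. The lists were chosen with earlier results of these data known, so nothing is read from these counts or from those per list below. At a pseudocount of 10, Rrm2 was the 1 gene left lower and 0 were higher, and with the ratio of mean TPM Rrm2 was lower and E2f5, Foxo3, Foxm1 and Top2a were higher. Of the 4 INK4 inhibitors, which bind CDK4 and CDK6 directly, Cdkn2d (p19) alone passed the filter, with a mean log2 level of 5.22 in control and 5.27 in cKO, a pooled difference of 0.05 that was −0.06 in batch 1 and −0.48 in batch 2. Cdkn2a was listed at 0 in all 93 cells, Cdkn2b was above 0 in 5 cells and Cdkn2c in 2. The 3 Rb pocket proteins had differences between −0.16 and 0.13 and opposite signs in the batches, and the most abundant was Rbl1 at 1.501 in control and 1.487 in cKO (0.02 in batch 1 and −0.23 in batch 2). None of the 6 CDK partners and activators passed the fold in both batches, and the most abundant, the chaperone Cdc37, was at 5.594 and 5.603 (0.23 in batch 1 and −0.90 in batch 2).

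Of the E2F and DP factors, 9 of 10 passed the filter, and E2f5 alone moved past the fold. E2f5, an E2F that works with the pocket proteins in repression, had a mean of 0.36 ± 0.78 (SD) in control and 2.12 ± 2.34 in cKO, a difference of 1.76 (2.17 in batch 1, 1.28 in batch 2), and reached 1 TPM in 3 of 27 control and 36 of 66 cKO cells. E2f2 failed the filter. Among 8 G1 transcription regulators 7 passed the filter, Mycl failed it, and Foxo3 alone was past the fold. Foxo3, a forkhead factor known to activate Cdkn1b, was at 1.47 ± 1.36 in control and 3.08 ± 1.64 in cKO, a difference of 1.61 (1.61 and 1.48). None of the 8 genes of G1 protein turnover passed the fold, and Cks1b, a cofactor in p27 degradation and the most abundant of them, was at 8.56 in control and 8.45 in cKO (−0.17 in batch 1 and 0.08 in batch 2).

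The S phase list, genes that E2F factors are known to drive, had 3 of 14 lower and 0 higher, with a median difference of −0.66 against 0.06 over all genes (−0.24 in batch 1 and −1.16 in batch 2). Rrm2, the small subunit of ribonucleotide reductase, was at 7.45 ± 1.68 (SD) in control and 4.504 ± 3.03 in cKO, a difference of −2.95 (−2.40 and −3.58). Mcm4, a subunit of the replicative helicase, differed by −1.87 (−1.56 and −2.42), and Uhrf1, which couples DNA methylation to replication, by −1.77 (−1.55 and −1.84). Their direction was shared by 9 of the 14 genes in both batches, while 1 was higher in both and 4 differed in sign. Of 5 S phase and mitotic cyclins and CDK, 4 were lower in both batches but none by 1 log2 unit in each, and Cdk1, the most abundant, had a difference of 0.06 (0.64 and −0.70). In the G2 and mitosis list 1 of 14 was lower, Birc5 (survivin), by −1.41 (−1.10 and −1.75), and the list median was −0.15. The median was 0.08 in batch 1 and −1.09 in batch 2, and median detected genes were 9845 in cKO against 8458 in control in batch 1 and 7786 against 9704 in batch 2.

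Of the 12 p53 targets other than Cdkn1a, 1 was lower and 0 higher. Ccng1 (cyclin G1) was lower by −1.77 (−1.25 and −2.31), and the list median was 0.58, with 0.69 in batch 1 and −0.22 in batch 2. The p53 list median thus turned sign between batches, as did Cdkn1a and the median of all genes (0.17 and −0.17). Of the 12 genes, 6 were higher in cKO in both batches, 2 were lower in both and 4 differed in sign. The mean over the list was 1.90 in control cells of batch 1 and 3.31 in those of batch 2, a gap in the same direction as that of Cdkn1a.

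**Figure D5:**
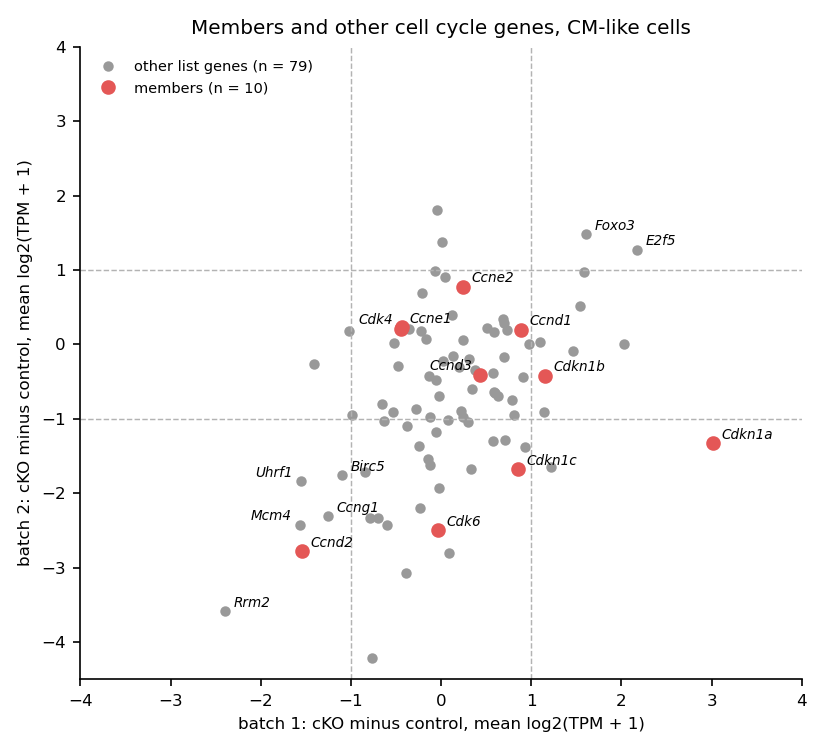
Difference in mean log2(TPM + 1), cKO minus control, in batch 1 (horizontal) and batch 2 (vertical) for the 10 genes (red) and the 79 other pathway genes that passed the filter (grey), 1 point per gene, with dashed lines at 1 log2 unit. The lower left corner holds Ccnd2, Rrm2, Mcm4, Ccng1, Uhrf1 and Birc5, and the upper right corner holds E2f5 and Foxo3.

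Variation of the genes among the 66 cKO CM-like cells was described by Pearson's r of log2(TPM + 1) centred within batch, over cells that share a library batch and differ in depth. Of 5917 genes at 1 TPM or more in at least 50% of these cells, the most like Ccnd2 were Klhl31 (r = 0.59), a Kelch protein of muscle, the ribosomal protein genes Rpl6 (0.57) and Rpl32 (0.55), Rrm2 (0.57) and the ribosomal pseudogene Rps23-ps (0.54), whose reads may come from related copies. In the 27 control cells r was 0.09 for Klhl31, 0.52 for Rpl6, 0.34 for Rpl32, 0.50 for Rrm2 and 0.15 for Rps23-ps. The genes were picked for their r in the cKO cells, and the difference in r between genotypes was not tested. Those most like Ccnd1 were Timeless (0.51), Mcm6 (0.49) and Eif3g (0.47), the first 2 with roles at the replication fork. Those most like Cdkn1c were Rpl7 (0.53), the imprinted zinc finger gene Plagl1 (0.52) and the laminin gene Lama4 (0.50).

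The mean of the S phase list varied with several of the cyclins in the same centred values. In cKO cells r was 0.58 for Ccne2, 0.43 for Ccnd1, 0.42 for Ccne1, 0.41 for Ccnd2 and 0.35 for Ccnd3. In control cells it was 0.43, 0.32, 0.43, 0.59 and 0.67, so Ccnd3 had the highest value of the cyclins there. Of the inhibitors, Cdkn1b had r of −0.23 in cKO and 0.43 in control cells. For Cdkn1a it was 0.18 and 0.42, and for Cdkn1c 0.14 and 0.25, positive in both genotypes. The number of detected genes had r of 0.21 with the S phase mean in cKO and 0.61 in control cells, and of −0.20 and 0.34 with Ccnd2. Between members, Ccnd2 had r of 0.33 with Ccnd1, 0.35 with Ccne2, 0.32 with Cdkn1c and 0.09 with Cdkn1a in cKO cells. Over all 45 pairs of the 10 genes r ran from −0.21 (Cdk6 with Cdkn1b) to 0.51 (Ccnd3 with Cdk4) in cKO cells.

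Markers of other cell types were compared between the genotypes within the CM-like cells. The 13 endothelial markers summed to between 2.00 and 232 TPM in control (median 18.7) and between 3.09 and 412 TPM in cKO cells (median 33.6), and 2 of 13 reached 1 TPM in most cells of either genotype. The 14 mesenchymal markers had medians of 6.66 (0.04 to 110) and 20.6 TPM (0.57 to 213), with Lum at 0 in both genotypes and Postn at 0 in cKO. The 6 epicardial markers had medians of 24.4 (0.31 to 533) and 33.7 TPM (0 to 355), and the 7 erythroid markers of 3.19 (0 to 357) and 7.35 TPM (0 to 483), with Klf1 at 0 in cKO. In cells with fewer than 3 markers of any other class at 10 TPM or more (22 control and 49 cKO cells) the Ccnd2 difference was −2.19 (−1.46 in batch 1 and −3.71 in batch 2). In cells with mitochondrial transcripts under 20% of TPM it was −2.44 (−2.07 and −2.64).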

How the data were processed

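The authors deposited 1 table of TPM values per gene and cell, made with Salmon on mm10 per the labels. The release of the annotation and the Salmon version are not given in the sources used here. Of 170 labelled samples, 143 had a column, matched by title, and 27 were not analysed here. The columns summed to between 996133 and 999999, no column repeated another, and depth per cell is unknown. All 143 cells were kept, and doublets were not called, since cells had been picked by hand.

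Ward clustering of z-scored log2(TPM + 1) of 55 markers gave 5 clusters, which rebuild and may differ from the cell types of the study. A cluster was named from at least 3 raised markers, unless markers of another class outnumbered its own in its top 10 genes. Differences are means of log2(TPM + 1), cKO minus control, and the pseudocount of 1 understates changes of low genes. A gene was called past the fold at 1 log2 unit or more in the same direction in both batches. The study's rank-sum test over cells was not used, because cells are not replicates. All 10 members are named. From each other list, up to 3 genes per direction past the fold with the largest pooled difference are named, otherwise its most abundant gene, and genes that failed the filter on low values were named after their values were seen. The genes most like Ccnd2, Ccnd1 and Cdkn1c were the 5, 3 and 3 with the highest r. The members and lists were chosen with earlier results of these data known. Reads were not assigned by strand in Smart-seq2, so opposite-strand neighbours that overlap Ccnd2 (9330179D12Rik), Ccnd3 (Bysl), Ccne2 (Ints8), Cdk4 (Tspan31) and Cdk6 (Gm17590) may share reads with them. The fold rule was checked on values shuffled within batch, with planted differences larger than the fold. That check did not cover differences near the fold or low genes. Positions and UTRs are from GENCODE M21. Python 3.11.15, pandas 2.3.3, NumPy 2.4.6, SciPy 1.17.1 and Matplotlib 3.10.9 were used.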

Additional observations from a re-analysis of the deposited data

Results flagged for a closer look

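The unnamed cluster led by mitochondrial transcripts entered no main comparison, but its cells were part of some alternatives below, such as that over all cells. In this cluster the mean log2(TPM + 1) of Cdkn1b was 3.44 in the 3 cKO cells (lowest 0, highest 6.36). That mean lay above the highest of the 7 control cells at 1.98, and 2 of 3 cKO cells exceeded that control cell. The Cdkn1b mean drew attention as a level in cells outside the main measurement that exceeded the control cells. The difference was not tested.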

How the results depend on the processing

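The Ccnd2 difference kept its sign in all 13 alternatives, between −2.77 (batch 2 alone) and −1.28, the value for the log2 ratio of mean TPM. That ratio and a fold of 2 log2 units left 0 members lower, and cells between the quartiles of detected genes gave 1 member higher (Ccnd1). The share of cKO cells with Ccnd2 detected became 98.5% at TPM above 0 and 81.8% at TPM of at least 10. The gap in Ccnd2 share of D cyclin TPM, −30.8 percentage points, became −18.2 over all cells. Of the other 9 members, Cdk6 kept its sign in 13 of 13 alternatives, Ccnd1, Ccne2, Cdk4, Cdkn1a and Cdkn1b in 12, Ccnd3 in 11, Ccne1 in 9 and Cdkn1c in 8. The Cdk6 sign was carried by batch 2, since its batch 1 difference was −0.03, and 0.25 with 4 clusters. The alternative with 6 clusters held the same 27 control and 66 cKO cells, so it repeated the main values of every gene. The count of pathway list genes, 5 lower and 2 higher, was less stable. It became 3 and 6 with 4 clusters and 2 and 5 with clusters of variable genes. The CM-like sets of these 2 alternatives held 34 and 37 control cells and all 69 cKO cells, those of the unnamed cluster among them. The count became 8 lower under 20% mitochondrial transcripts, 10 lower at a pseudocount of 0.1, 1 and 0 at a pseudocount of 10, and 1 and 4 with the ratio of mean TPM. It was 1 higher over all cells, 9 higher in batch 1 alone, and 26 lower and 4 higher in batch 2 alone, where 1 batch suffices for a call. The cause of these changes was not tested beyond that construction.

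No paired analysis was possible because a number in a title names 1 cell, not a replicate, and no p-value was computed between genotypes. With 1 sample per genotype, 8 control CM-like cells in batch 2 and no record of depth, differences between embryos, sexes and genotypes cannot be told apart.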
